A study of Mus musculus with 6 samples.

Results

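The interleukin-1 (IL-1) receptor genes of the mouse are 7 genes for the cell-surface chains through which the IL-1 family of cytokines acts. They were taken by name. Il1r2, Il1r1, Il1rl2, Il1rl1, Il18r1 and Il18rap stand in that order on chromosome 1, and Il1rap lies on chromosome 16. They are 7 of the 21755 protein-coding genes examined.

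IL-1 family cytokines bind a receptor chain that then recruits an accessory chain, and the joined intracellular domains call in the adaptor MyD88 and the kinases that lead to NF-κB. IL-1, IL-33 and IL-36 share the accessory chain encoded by Il1rap, whereas IL-18 has an accessory chain of its own, encoded by Il18rap. In the lung, IL-33 released by damaged epithelium is known for its action on innate lymphoid cells and mast cells, and macrophages are a known source of IL-1.

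The mark was acetylation of histone H3 at lysine 27 (H3K27ac), which sits at active promoters and enhancers, profiled in alveolar macrophages (AMs). These phagocytes live in the air spaces of the lung and were sorted here from bronchoalveolar lavage of wild-type C57BL/6J mice, 9 weeks old per the study's methods, and no group carried an allele or a treatment. Chromatin was studied by HT-ChIPmentation, in which the transposase Tn5 adds sequencing adapters while the chromatin is still bound to the antibody beads. Of the 6 samples, 1 was an H3K27ac library made with an Active Motif antibody and 2 were replicates made with a Cell Signaling antibody. The other 3 were inputs, used by the authors as controls in peak calling.

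Called peaks numbered 36364 in the Active Motif library, whereas Cell Signaling replicate 1 had 56175 and Cell Signaling replicate 2 had 49139, with median widths of 341, 267 and 629 bp. The fold given for a peak is the authors' enrichment of reads over the local background at its summit, a ratio within 1 library, with medians over all peaks of 5.97, 5.38 and 7.19. Read depth was not used here, and a missing peak is a peak not called at whatever depth the library had. Whether the replicates are separate animals is not given by the labels, so their spread may be technical. The study's methods describe more than 1 way of sonicating the H3K27ac samples without assigning them to libraries. Differences between the Active Motif and Cell Signaling lists in peaks, widths or folds therefore cannot be told apart from differences in sonication, sequencing run or depth. The promoters of 8 of 8 AM markers, such as Siglecf and Marco, carried a peak in each library, as against 0 of 6 mast cell and basophil markers and 0 of 4 eosinophil markers. At most 2 of 6 neutrophil, 2 of 6 epithelial and 1 of 4 endothelial markers were marked in any library. Among the epithelial markers was Cdh1, marked in both Cell Signaling replicates, which the paper counts as an AM-core gene. The epithelial marker Scgb1a1 had a peak in replicate 1 alone (fold 6.53). The endothelial marker Pecam1 had folds of 19.6 in the Active Motif library and 41.9 and 38.8 in the replicates. The neutrophil markers were S100a8 in both replicates (8.46 and 18.3) and Cxcr2 in replicate 2 alone (7.44). Over all protein-coding genes, promoter peaks were present at 40.9% in the Active Motif library and at 47.9% and 48.9% in Cell Signaling replicates 1 and 2.

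A promoter was called marked when a peak lay within 1 kb of any annotated transcription start site (TSS) of the gene. In the Active Motif library the marked members were Il1rl2 and Il1rap, 2 of 7 beside 40.9% of all protein-coding genes. In Cell Signaling replicate 1 they were Il1rl2, Il18rap and Il1rap, 3 of 7 beside 47.9% of all genes. Cell Signaling replicate 2 added a weak peak at Il1r1, which made 4 of 7 beside 48.9%. A region shared by the Cell Signaling replicates, that is a stretch of merged peaks with at least 1 peak of each, reached the promoters of 3 of 7 members and of 46.5% of all genes. In all 3 libraries 2 of 7 members were marked, beside 40.8% of all genes. The counts of marked members were thus near the shares over all genes, and the mark was spread unevenly along the 7. In a bulk library, a mark present in few cells and a weak mark present in all cells cannot be told apart.

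**Figure D1:**
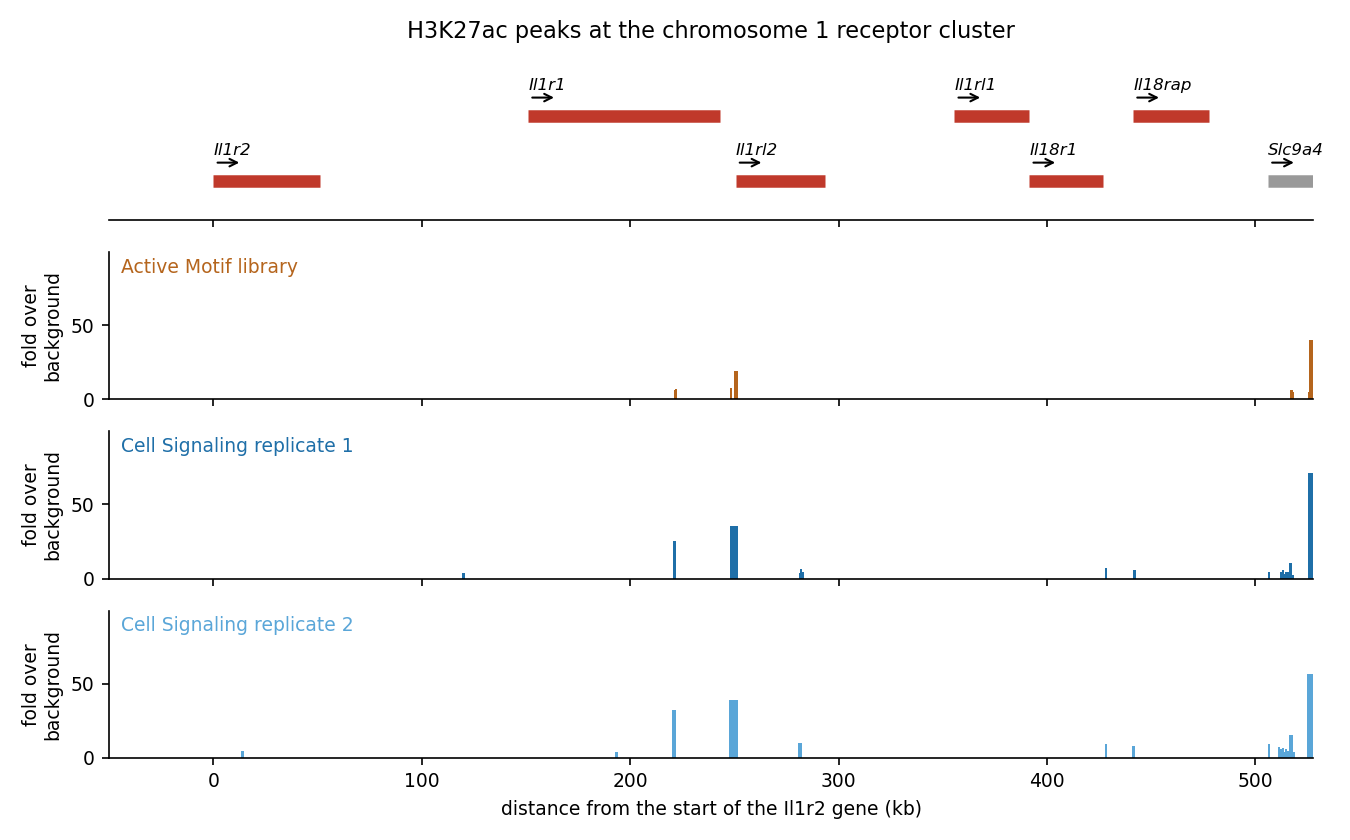
Genes (red, members; grey, Slc9a4; arrows, direction of transcription) and H3K27ac peaks along the chromosome 1 cluster with 50 kb either side. The x axis is the distance in kb from the start of the Il1r2 gene, and the height of each bar is the fold of 1 peak over its local background in the library named. The tall peaks lay inside Il1r1, at the start of Il1rl2 and at the right edge inside Slc9a4, and no library had a peak over Il1rl1 or Il18r1.

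Il1r1 (chr1:40225080-40317257) encodes the signalling receptor for IL-1. No library had a peak within 1 kb of its 5′ TSS. At its second annotated TSS, 40266586, Cell Signaling replicate 2 alone had a peak, of 89 bp and a fold of 3.93, which was lower than the promoter folds of all but 0.489% of marked genes in that library. The mark at Il1r1 was instead inside the gene. A region at chr1:40294364-40296197 had a fold of 6.7 in the Active Motif library, 25.4 in Cell Signaling replicate 1 and 32.4 in Cell Signaling replicate 2. All 3 libraries marked it, and the summits of the Cell Signaling replicates were 42 bp apart. The Active Motif library had 2 peaks there, and the stronger had its summit elsewhere, at 40295554. The other, with a fold of 6.36, covered the summits of both replicates. The region covered a coding exon at chr1:40294758-40294926, but the replicate 1 summit, at 40295118, was in the intron that follows. That summit was 28.5 kb downstream of the nearer Il1r1 TSS and 29.5 kb upstream of the Il1rl2 TSS, so that position alone does not tie it to either gene.

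The libraries gave this intronic region different ranks. Among the 18015 shared regions that also had an Active Motif peak, its fold exceeded 67.2% of the others in Cell Signaling replicate 1 and 70% in replicate 2, but 33.8% in the Active Motif library. The sequence 100 bases either side of the replicate 1 summit (chr1:40295018-40295217, plus strand, GRCm38) is shown because, with promoter regions set aside, this was the strongest shared region inside a chromosome 1 member. Here and in the sequences that follow, capitals mark every match on either strand to 8 short motifs of transcription factor families. The PU.1 type ETS motif was GAGGAAGT, the CEBP motif TTGCNNAA, the AP-1 motif TGANTCA and the RUNX motif TGTGGTT. The NF-κB motif was GGGNNTTCC, the nuclear receptor motif AGGTCA and the ETS-IRF motif GGAANNGAA. For factors of the GATA family the letters searched were AGATAA.
Il1r1 intron: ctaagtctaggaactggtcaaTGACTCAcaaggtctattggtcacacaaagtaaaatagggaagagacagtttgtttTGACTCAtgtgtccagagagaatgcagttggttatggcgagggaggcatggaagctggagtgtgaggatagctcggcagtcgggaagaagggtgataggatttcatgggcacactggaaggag
Both matches are AP-1, at 79 and 23 bases before the summit. Of 19402 windows of 200 bases at distal shared regions, 9.56% held an AP-1 match. A match is a run of letters and does not show that a factor was bound.

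Il1r2 (chr1:40074079-40125231) encodes the decoy receptor, which binds IL-1 and does not signal. Its promoter had no peak in any library. Cell Signaling replicate 2 had 2 peaks in an intron about 3 kb past the TSS, with folds of 4.79 and 3.6, and neither other library had a peak in the gene. Il1r2 was the only member with no shared region in its body or within 50 kb either side. The other members, 6 of 7, had at least 1, beside 72.5% of all genes.

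Il1rl2 (chr1:40324610-40367562), which encodes the receptor for IL-36, had the strongest promoter of the 7. Its fold was 19.2 in the Active Motif library, 35.4 in Cell Signaling replicate 1 and 38.8 in Cell Signaling replicate 2. Each was well above the median of marked promoters in its own library, which was 11.1, 19.2 and 26.9, respectively. The Il1rl2 fold was higher than at 80.4%, 78.8% and 78.5% of marked genes in the 3 libraries, so the rank was nearly the same under both antibodies.

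The domain at Il1rl2 was also broad. The promoter peak measured 1660 bp with the Active Motif antibody and 4180 and 4440 bp in the Cell Signaling replicates, wider than at 76.3%, 93.1% and 90% of marked genes. The Active Motif library had a further peak in this domain, at chr1:40321948-40322958 with a fold of 7.25. It lay outside the 1 kb window and is not in that width. The replicate peaks reached 2910 and 3204 bp upstream of the TSS at 40324690, and 1269 and 1235 bp downstream. Their summits lay 131 and 132 bp past that TSS, 1 bp apart, against a median distance of 115 bp between replicate summits over all shared regions.

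This promoter was poor in CpG, the dinucleotide that is dense at most widely used promoters. Within 500 bp of an Il1rl2 TSS there were at most 24 CpG, beside a median of 47 over all genes. Genes were placed in 10 groups of rising CpG number, and in the group of Il1rl2, which spans 19 to 33 CpG, 25.3% had a shared region at the promoter. Among the marked genes of that group, the fold at Il1rl2 was higher than at 82.6% (Active Motif), 83.8% (replicate 1) and 82.5% (replicate 2). The 250 bases before the RefSeq start (chr1:40324339-40324588, plus strand, GRCm38.p6) are shown because this was the strongest member promoter.
Il1rl2 promoter: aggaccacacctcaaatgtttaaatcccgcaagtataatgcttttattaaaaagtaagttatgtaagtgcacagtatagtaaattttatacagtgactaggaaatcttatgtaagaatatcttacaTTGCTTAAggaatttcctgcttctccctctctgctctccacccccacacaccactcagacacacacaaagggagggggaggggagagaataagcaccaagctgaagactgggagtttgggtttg
The single match is CEBP, starting 124 bases before the start site. A CEBP match was present in 8.99% of 20061 promoters of this length.

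Farther into the gene, an intronic region at chr1:40354373-40356520 had folds of 6.43 and 9.83 in the Cell Signaling replicates and no Active Motif peak. Its summits were 381 bp apart, more than the median, and its replicate 1 summit was 31 kb downstream of the TSS. The window at that summit (chr1:40355610-40355809, plus strand, GRCm38) is shown because it was the last marked site before the longest gap of the cluster.
Il1rl2 intron: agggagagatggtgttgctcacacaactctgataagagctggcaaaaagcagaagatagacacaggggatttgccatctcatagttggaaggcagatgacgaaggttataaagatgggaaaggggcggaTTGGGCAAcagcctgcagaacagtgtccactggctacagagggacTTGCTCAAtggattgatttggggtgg
It holds 2 CEBP matches, 29 and 74 bases after the summit, and 11.1% of the distal windows held at least 1.

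**Figure D2:**
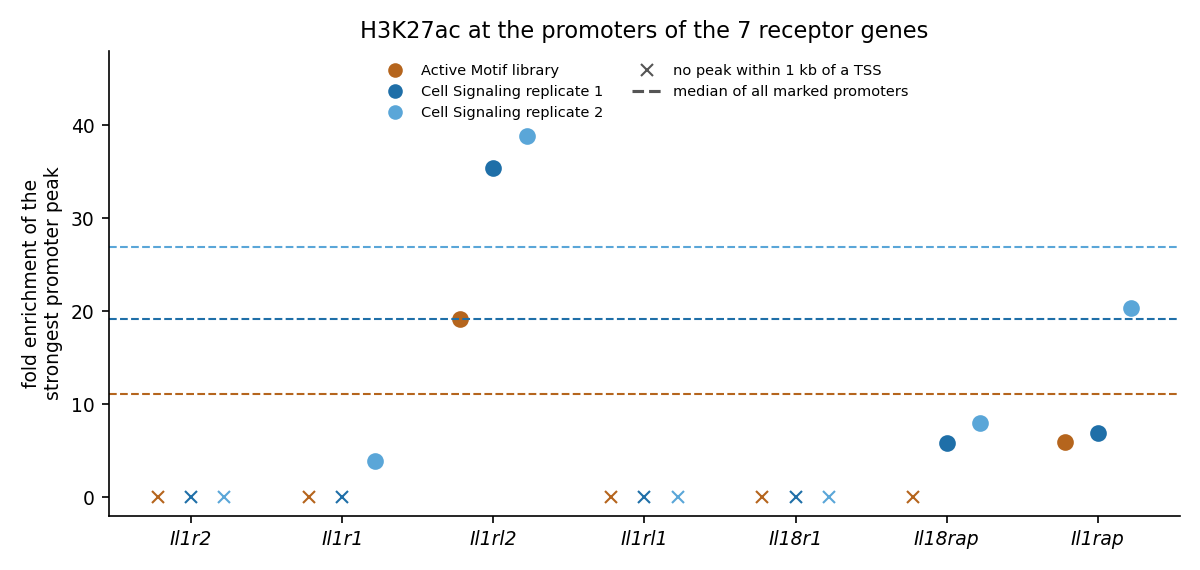
Fold of the strongest H3K27ac peak within 1 kb of a TSS (y axis) for each of the 7 receptor genes (x axis), with 1 point per library. Crosses at 0 mark libraries with no such peak, and dashed lines give the median over all marked promoters of the library in the same colour. The Il1rl2 promoter was above the median in each library, and every other marked member was below it.

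Il1rl1 (chr1:40429570-40465415) encodes ST2, the receptor for IL-33, and Il18r1 (chr1:40465552-40500854) the ligand-binding chain for IL-18. The genes are 136 bp apart. Neither had a peak in any library, at a promoter or anywhere in the body. Such genes were common, 2 of 7 members beside 43.5% of all protein-coding genes. Both genes lay wholly within a stretch of 145 kb without a peak of any library, chr1:40356521-40501739. Stretches at least as long made up 5.34% of all stretches between peaks but held 69.1% of the genome. The nearest peak to an Il1rl1 TSS was 61.1 kb away in replicate 2, 61.2 kb in replicate 1 and 104 kb in the Active Motif library. For Il18r1 these distances were 35.7, 35.8 and 125 kb.

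Il1rl1 had at most 13 CpG within 500 bp of a TSS, in a group where 14.6% of genes were marked in both replicates, and Il18r1 had 21, in the same group as Il1rl2. Similar CpG numbers thus went with a broad domain at Il1rl2 and with no peak at Il18r1. Of the other members without a shared promoter region, Il1r1 had at most 40 CpG, in a group where 54.1% of genes were marked in both replicates. Il1r2 had 7, in a group where 7.91% were. The 250 bases before the 5′ RefSeq start of Il1rl1 (chr1:40429320-40429569, plus strand, GRCm38.p6) are shown as the unmarked counterpart to Il1rl2.
Il1rl1 promoter: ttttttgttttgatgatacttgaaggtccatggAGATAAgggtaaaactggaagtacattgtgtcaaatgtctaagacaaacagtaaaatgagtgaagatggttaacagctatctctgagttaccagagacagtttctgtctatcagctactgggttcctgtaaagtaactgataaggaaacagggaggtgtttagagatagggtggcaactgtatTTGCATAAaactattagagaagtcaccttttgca
The matches are GATA, 217 bases before the start, and CEBP, 34 bases before it. GATA matches were present in 8.59% of promoters of this length. The promoter of Il1rl1, without a peak, thus held the CEBP letters as did that of Il1rl2. Promoters of 1 of 8 markers of innate lymphoid and T cells were marked with the Active Motif antibody, and 2 and 1 in Cell Signaling replicates 1 and 2. The shares over all genes were 40.9%, 47.9% and 48.9%. Rora was the marker common to all 3 libraries. Gata3 had no promoter peak.

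Il18rap (chr1:40515362-40551705), the gene of the IL-18 accessory chain, was marked weakly and only in the Cell Signaling libraries. In replicate 1 its promoter held 2 peaks, the stronger with a fold of 5.77 and a width of 437 bp, and in replicate 2 it held 1 of 7.99 and 953 bp. These folds exceeded 8.53% and 7.39% of marked promoters. With 9 CpG near its TSS, Il18rap was in a group where 7.91% of genes were marked in both replicates, and among marked genes of that group its fold exceeded 29.2% in replicate 1 and 17.2% in replicate 2. A second site, between Il18r1 and Il18rap at chr1:40501740-40502579, had folds of 7.3 and 9.28, and its replicate 1 summit was 36 kb downstream of the nearest Il18r1 TSS and 13.4 kb upstream of Il18rap. The Il18rap body held no peak beyond the promoter. The 250 bases before the start (chr1:40515112-40515361, plus strand, GRCm38.p6) are shown as the weakly marked case.
Il18rap promoter: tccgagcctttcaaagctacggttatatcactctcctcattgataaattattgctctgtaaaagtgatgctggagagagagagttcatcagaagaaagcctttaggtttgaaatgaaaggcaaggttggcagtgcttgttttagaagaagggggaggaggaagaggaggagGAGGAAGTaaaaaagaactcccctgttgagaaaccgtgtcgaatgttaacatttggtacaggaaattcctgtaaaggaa
The match is PU.1 type ETS, 79 bases before the start, and 2.29% of promoters of this length held 1.

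Both chains of the IL-18 receptor are needed for a response, and their genes differed here. Il18rap had a shared promoter region and Il18r1 had no peak. The Il18rap peaks were among the weakest of marked promoters, and the nearest Active Motif peak was 75.4 kb from the TSS.

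Il1rap (chr16:26581704-26730117), the accessory chain shared by the IL-1, IL-33 and IL-36 receptors, was marked in every library. Its promoter fold was 5.97 in the Active Motif library, 6.92 in Cell Signaling replicate 1 and 20.3 in replicate 2, below the median of marked promoters each time. It exceeded 14.4%, 13.5% and 33.5% of them. The replicate 2 peak measured 1061 bp and covered all 4 annotated TSS, whereas the Active Motif peak, of 258 bp, began 0.129 kb past the last of them. Unlike Il1rl2, this promoter had more CpG than the median gene, 63 within 500 bp of a TSS, in a group where 72% of genes were marked in both replicates.

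Inside the gene, a region at chr16:26689005-26692395, in an intron and 108 kb from the TSS, had folds of 10.2, 13.8 and 18.5. It was 3391 bp wide, and in the Active Motif and replicate 1 lists it exceeded the fold of the promoter, whereas in replicate 2 the promoter was higher. A region at chr16:26625824-26626942, also intronic, had folds of 5 and 15 in the replicates and no Active Motif peak. Intragenic shared regions apart from the promoter occurred in 3 of 7 members, Il1r1, Il1rl2 and Il1rap, beside 21.2% of all genes. These members span 92.2, 43 and 148 kb, and the share over all genes was not matched for gene length. The window at the replicate 1 summit of the second region (chr16:26626152-26626351, plus strand, GRCm38) is shown because the replicates differed there.
Il1rap intron: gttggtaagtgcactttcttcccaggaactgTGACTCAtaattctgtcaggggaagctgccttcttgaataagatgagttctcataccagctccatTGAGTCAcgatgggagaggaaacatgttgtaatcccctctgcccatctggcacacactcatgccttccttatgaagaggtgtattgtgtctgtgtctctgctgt
Both matches are AP-1, 69 and 4 bases before the replicate 1 summit, the same motif as in the Il1r1 intron. The replicate 2 summit, at 26626585, was 333 bp away and outside this window. The median distance between replicate summits over all shared regions was 115 bp.

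**Figure D3:**
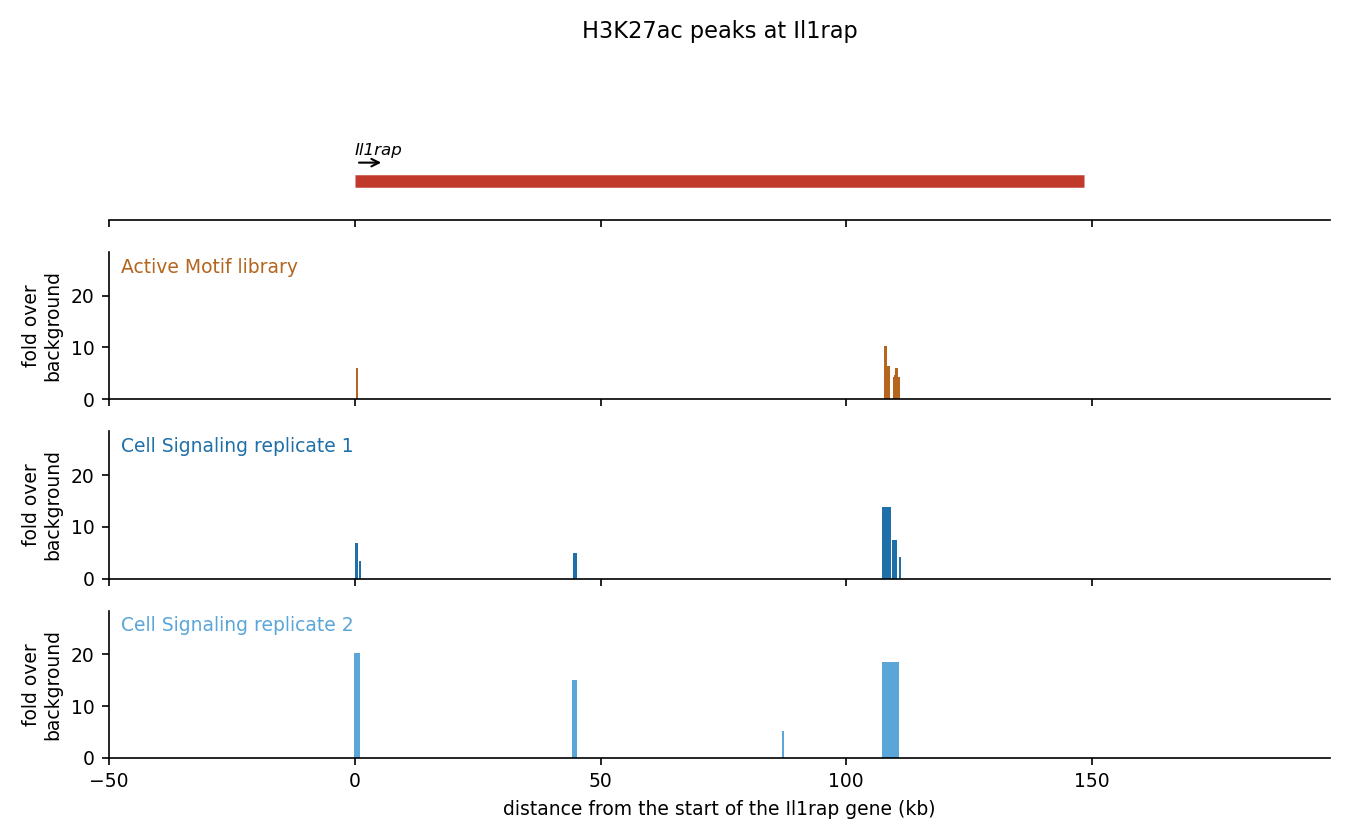
The Il1rap gene (red; arrow, direction of transcription) and H3K27ac peaks with 50 kb either side. The x axis is the distance in kb from the start of the gene, and bar height is the fold of 1 peak over its local background in the library named. Peaks stood at the promoter and about 108 kb into the gene in all 3 libraries, and those near 44.5 kb were in the Cell Signaling replicates alone.

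On chromosome 1 the mark rose again past the last receptor gene. Slc9a4 (chr1:40580081-40630725), which encodes a sodium-proton exchanger, has its TSS within 50 kb of Il18rap, and 9 of the 14 shared regions of the cluster lay at or in it. Its own promoter was weak, with folds of 4.61 and 9.46 in the Cell Signaling replicates and no Active Motif peak. Inside the gene, a region at chr1:40598859-40603077 had folds of 39.6 with the Active Motif antibody and 70.8 and 56.4 in the Cell Signaling replicates. This was the highest value of the locus in each library, above 99.6% of shared regions in replicate 1 and 99.8% in replicate 2. Its replicate 1 summit was 85.7 kb downstream of the Il18rap TSS, 20.9 kb downstream of the Slc9a4 TSS, and near the end of a coding exon at chr1:40600770-40601029. The Active Motif and replicate 2 summits, at 40601062 and 40601065, were in the intron that follows. A weaker region at chr1:40590052-40591862 had folds of 6.48, 10.4 and 15.5. No target gene can be assigned from position alone. The summit window (chr1:40600919-40601118, plus strand, GRCm38) is shown because it was the strongest site of the locus.
Slc9a4 exon and intron: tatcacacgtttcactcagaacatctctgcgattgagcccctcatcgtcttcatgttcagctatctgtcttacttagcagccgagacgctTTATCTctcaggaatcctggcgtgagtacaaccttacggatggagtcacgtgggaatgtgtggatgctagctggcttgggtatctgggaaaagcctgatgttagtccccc
Its match is GATA on the minus strand, and 11% of distal windows held 1.

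In all, the chromosome 1 cluster with 50 kb either side (578 kb) held 14 shared regions over 2.96% of its length, and the Il1rap window (248 kb) held 3 over 2.24%, beside 2.15% of the genome. The genes differed widely in this measure. Shared regions covered 0% of the Il1r2 window, 0.969% at Il1rl1, 1.33% at Il18r1, 2.24% at Il1rap, 4.4% at Il1r1, 5.92% at Il1rl2 and 6.35% at Il18rap, where Slc9a4 regions fell within the 50 kb. The median of the 7 was 2.24%, and that of all genes was 2.6%. Neighbouring windows overlap, so these are not separate measurements. Without Slc9a4, with 1 kb either side of the outer chromosome 1 members, 5 shared regions over 2.14% remained.

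The Cell Signaling replicates ranked the 17 shared regions of both loci alike, with a Spearman rho of 0.91 across regions, which share their libraries and are not independent. Replicate 2 had the higher fold at 16 of 17, with a median ratio of replicate 2 to replicate 1 of 1.33, next to 1.32 over all 29277 shared regions. The exception was the strong Slc9a4 region, with a ratio of 0.797. At the Il1rap promoter the ratio was 2.93 and at its intronic region near 44.5 kb 2.99. Both were outside the range that held the central 95% of all shared regions, 0.613 to 2.73. The third Il1rap region, at 1.33, was near the median.

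**Figure D4:**
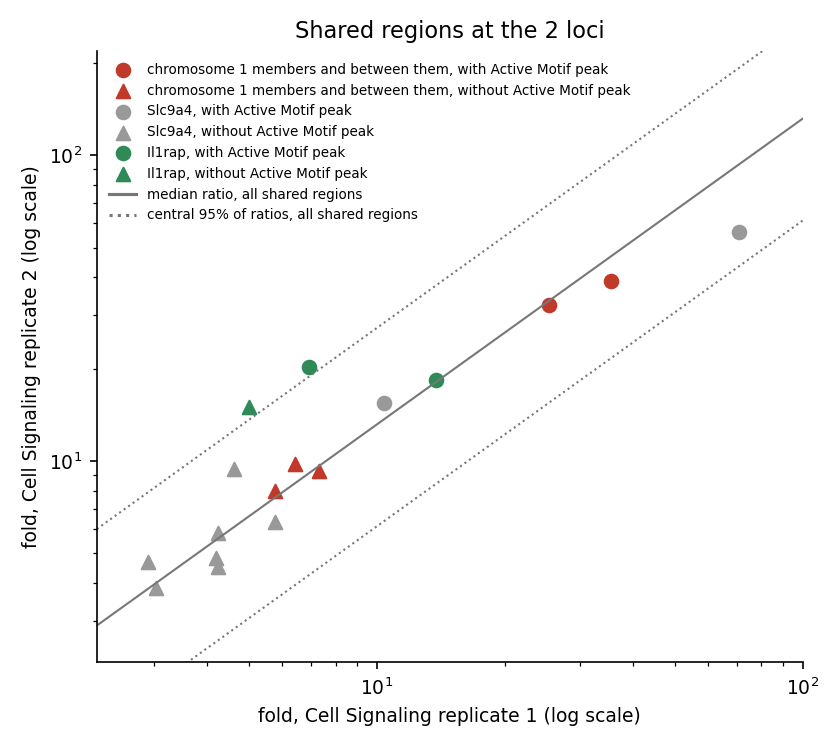
Fold of the 17 shared regions in Cell Signaling replicate 1 (x axis) and replicate 2 (y axis), both on log scales. Colours give the place of the region, circles have an Active Motif peak and triangles have none, the solid line is the median ratio over all 29277 shared regions and the dotted lines hold the central 95% of ratios. Both points outside the dotted lines were Il1rap regions, with ratios of 2.93 and 2.99.

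An Active Motif peak overlapped 6 of the 17 shared regions, 35.3% (exact binomial 95% interval 14.2% to 61.7%, counting error over regions only), beside 61.5% of all shared regions. Of the 11 regions without an Active Motif peak, 7 were at or in Slc9a4, most of them narrow and close together. Such neighbours are not independent, and the interval does not allow for that. With 1 kb either side of the members, which leaves out Slc9a4 and was chosen after seeing the data, the share was 50% (4 of 8). A flank of 25 kb also gave 4 of 8. The flank changes only the loci, so the 61.5% over all shared regions is the figure beside both. With peaks within 1 kb merged, an alternative chosen after seeing the data, the share was 54.5% (6 of 11) beside 67% overall. With equal numbers of peaks per library it was 50% (6 of 12) beside 73%. It was 23.1% (6 of 26) with replicate 2 peaks alone, without replicate 1, and 7.69% (1 of 13) where regions and peaks had to overlap by 50% of each. The share over all regions was not computed under these rules, so neither value can be read as low for these loci. Split by strength, of the 5 regions at or above the median replicate 1 fold of 9.99, all 5 had an Active Motif peak, beside 95.7% of such regions overall. Below it, 1 of 12 did, the Il1rap promoter, beside 27.3%. The library had no peak in either locus outside the shared regions.

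Downstream of the receptors, all 21 genes of the signalling chain had a promoter peak in each library. The shares over all protein-coding genes were 40.9% in the Active Motif library and 47.9% and 48.9% in Cell Signaling replicates 1 and 2. Myd88, the adaptor, had folds of 24.8, 35.8 and 54.2 in the Active Motif library and Cell Signaling replicates 1 and 2, in that order. The kinases recruited to it followed: Irak1 with 9.38, 22.3 and 36.4, Irak2 with 23, 38.4 and 42.1, and Irak3, which restrains the pathway, with 17, 20.4 and 34.4.

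Of the 8 ligand genes, 3 were marked in each library. Beside this list and the antagonists below, the shares over all genes were 40.9%, 47.9% and 48.9%, in the same order of libraries. Il1a had folds of 29.7, 54.6 and 44.5, and Il18 had 16.4, 50 and 45.6. Il1b had 6.15, 41.9 and 20.3. Il33 and the IL-36 family genes Il1f6, Il1f8 and Il1f9, as well as Il1f10, had no promoter peak. Thus the promoter of the IL-36 receptor gene was marked where those of the listed IL-36 genes were not. For IL-1 the genes of the ligands were marked and the 5′ promoter of the signalling receptor was not. The second promoter of that receptor gene, Il1r1, had a weak peak in replicate 2 alone, and all 3 libraries marked a region inside it. Of 6 antagonists and other receptors of the family, Il1rn, the IL-1 receptor antagonist (28.9, 23.7 and 40.1), and Il18bp, which neutralizes IL-18 (4.87, 9.23 and 16.1), were marked in each library, and Il1f5, Sigirr, Il1rapl1 and Il1rapl2 were not.

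Among other receptors, the Toll-like receptors, most of which share the MyD88 pathway, were marked at 8 of 12 promoters in the Active Motif library. Replicate 1 also marked 8 of 12, and replicate 2 marked 9 of 12. The shares over all genes were 40.9%, 47.9% and 48.9% in these libraries. Tlr2 had folds of 40, 71.5 and 54.6, each above Il1rl2. Tlr1, Tlr9 and Tlr12 had no promoter peak, and Tlr11 had 1 in replicate 2. Receptors for the cytokines of the alveolar niche and related signals were marked at 12 of 12 in every library, beside the same shares over all genes. Csf2ra, a chain of the GM-CSF receptor, had folds of 31.4, 65 and 40.3. These lists describe the libraries side by side, and the difference between lists was not tested. The lists were not matched for CpG, and in the group of genes richest in CpG 72.8% had a shared region at the promoter.

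**Figure D5:**
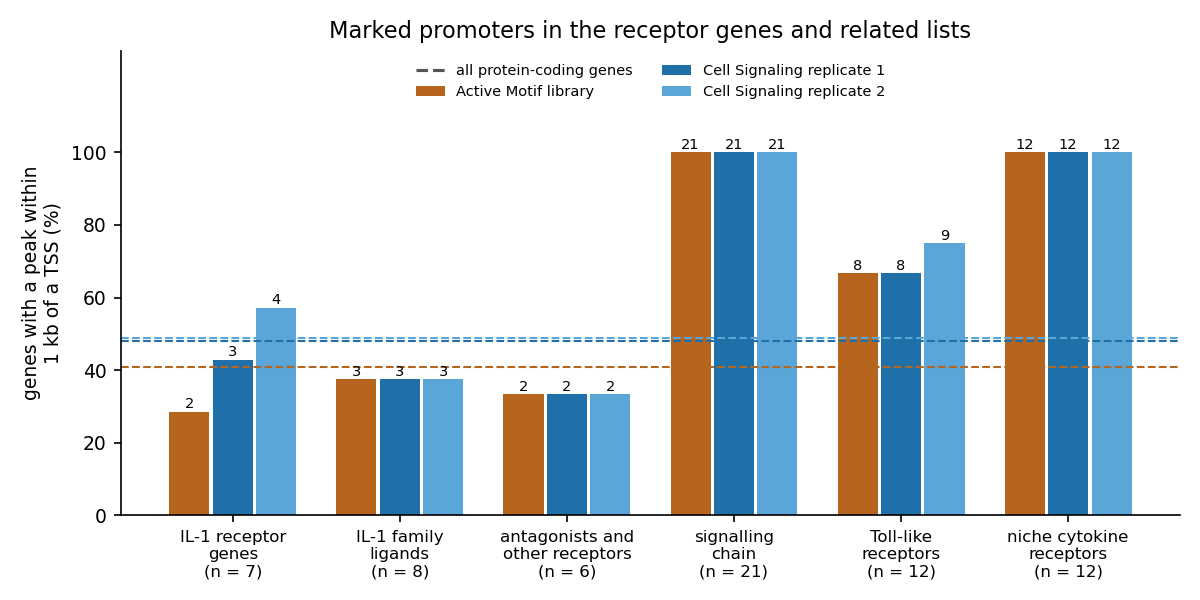
Percent of genes with an H3K27ac peak within 1 kb of a TSS (y axis) in the receptor genes and 5 related lists (x axis), with 1 bar per library and the number of marked genes above each bar. Dashed lines give the percent over all protein-coding genes in the library of the same colour, 40.9%, 47.9% and 48.9%. The 7 receptor genes, at 28.6%, 42.9% and 57.1%, sit around these lines, and the signalling chain and the niche cytokine receptors reach 100%.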

How the data were processed

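H3K27ac HT-ChIPmentation libraries of sorted AMs were compared as deposited peak lists, 1 per library. Per the study's methods, the authors trimmed reads with Cutadapt, aligned them to mm10 with Bowtie2, removed duplicates and called peaks with MACS3 against input at a q-value of 0.05. The submitters' processing notes also name CASAVA, SAMtools and, for the Cell Signaling libraries, bcl2fastq 2.20.0.422. The deposited files hold for each peak a score, the fold over background as a ratio, the −log10 p-value and the −log10 q-value, and the summit. Only positions, folds and q-values were used here. The lists hold no read counts, so intervals cover counting error over regions only.

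Genes and TSS came from the GENCODE vM21 basic annotation, and sequences from RefSeq and GRCm38.p6, the assembly of mm10. Peaks on 19 autosomes and X were used, and none ran past a chromosome end. Overlap needed 1 bp, and coordinates count from 1. All 7 members matched a RefSeq promoter, with 11 entries. Promoters that overlap a UTR were not printed. Scripts ran in Python 3.11.15 with pandas 2.3.3, scipy 1.17.1 and pysam 0.24.0, and the interval code was tested on simulated data. With 1 Active Motif library and 2 Cell Signaling replicates, no test between groups was made.

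The members, lists and motifs were chosen with earlier results of these data known. Named were the members, genes with a TSS in the 2 windows, the strongest promoter region of each member, the 5 regions of highest replicate 1 fold per window, and, of each list, up to 4 genes in list order or those against its majority. The remaining ligand and antagonist genes, Marco, Rora, Gata3, Cdh1, Scgb1a1, Pecam1, S100a8 and Cxcr2 were named after their values were seen. So were the Il1rl2 intronic region and the single-library peaks at Il1r1 and Il1r2. Alternatives varied the promoter window, TSS set, flank, overlap, peak strength, number of peaks and replicate.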

Additional observations from a re-analysis of the deposited data

How the results depend on the processing

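The count of members with a marked promoter stayed within 1.5 times of the reported count in each library under all 5 alternatives (a promoter window of 500 bp or 3 kb, the 5′ end of the gene alone, −log10 q of at least 5, and 36364 peaks in each library). The Il1r1 promoter peak of replicate 2 was lost under the last 3, and Il1r2 was added in replicate 2 with 3 kb (5 of 7). At the chromosome 1 cluster the 14 shared regions became 5 with a flank of 25 kb, 8 at the stricter q-value and 9 with equal lists. Their coverage of 2.96% became 1.94% with a flank of 25 kb, 4.42% with 100 kb and 2.29% with 50% reciprocal overlap. Chosen after seeing the data, merging peaks within 1 kb gave 8 regions over 3.64%, and the member genes with 1 kb either side gave 5 over 2.14%. With peaks of 1 replicate alone, the cluster held 19 (without replicate 2) to 22 (without replicate 1) peaks over 2.3% to 3.2%, and the Il1rap window 4 (without replicate 1) to 6 (without replicate 2). The Active Motif share of 35.3% fell to 7.69% (1 of 13) with 50% reciprocal overlap, and rose to 54.5% (6 of 11) at the stricter q-value, beside 63.1% of all regions at that q-value. Without 1 replicate it was 23.1% (without replicate 1) to 32% (without replicate 2). The share over all regions was not computed with reciprocal overlap or without 1 replicate. The flanks and the overlap rule change the bases counted by construction, and a flank of 25 kb ends before the 9 shared regions at or in Slc9a4. For the other moves the cause was not tested. No paired analysis was possible because no result comes from a test. The lists hold no depth, so an absent peak sets no upper limit on the mark.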

Other observations

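Past the edge of the cluster window, a region at chr1:40629818-40638837, 9020 bp wide, overlapped the 3′ end of Slc9a4. The gene ends at 40630725, so most of the region lay beyond it. The region had folds of 16.2 in the Active Motif library, 28.3 in Cell Signaling replicate 1 and 46.7 in Cell Signaling replicate 2. Around the marked ligand genes, shared regions covered 20.3% of the window of Il1a, 26% of that of Il1b and 23.2% of that of Il18, each with 50 kb either side, and 0.195% at Il33. The Il1a and Il1b windows overlap. The windows of the IL-36 family genes Il1f6, Il1f8 and Il1f9 had none.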
